A study of Mus musculus with 12 samples.

Results

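The genes described here were 9 genes of cholinergic signalling, chosen by symbol out of the 55385 genes of the deposited table: the cholinergic neuron genes Chat, Slc18a3 and Slc5a7, the acetylcholinesterase gene Ache, and the muscarinic acetylcholine receptor genes Chrm1, Chrm2, Chrm3, Chrm4 and Chrm5. Each was found as 1 row. The genes were chosen with earlier results of these data known. Counts of them set beside the share of all genes are therefore a description. All 9 were among the 21393 genes with a mean of at least 0.1 FPKM (fragments scaled by transcript length and by the fragments mapped in the library), although Chrm5 passed this filter only through the MS_W group, with a mean of 0.062 FPKM over the other libraries. Its differences from MS_W are therefore given as a description, and counts are also given over the other 8 genes. The tissue was whole brain of male wild-type C57/BL6J mice, bought at 8 weeks of age, and 1 library of poly(A) RNA was made per mouse from 12 mice. The control groups received water (C_W) or krill oil (C_O), and 2 further groups went through 4 weeks of chronic unpredictable mild stress (CUMS) with water (MS_W) or krill oil (MS_O). Krill oil was given by gavage at 200 mg/kg/day for 5 weeks. All mice were perfused with saline before the brain was taken, and 3 mice per group were drawn at random for sequencing from larger groups. The libraries are named by group and mouse number, so C_O72 is mouse 72 of the C_O group.

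Acetylcholine is made from choline and acetyl-CoA by choline acetyltransferase, the product of Chat. The vesicular acetylcholine transporter (Slc18a3, also called VAChT) loads it into synaptic vesicles, acetylcholinesterase (Ache) splits it in the synaptic cleft, and the high-affinity choline transporter (Slc5a7, also called CHT1) returns the choline to the nerve ending. In the brain, Chat, Slc18a3 and Slc5a7 mark cholinergic neurons, whose cell bodies lie in the basal forebrain, as interneurons in the striatum, in the medial habenula and in nuclei of the brainstem, including the motor nuclei of the cranial nerves. The receptors Chrm1, Chrm3 and Chrm5 couple to Gq proteins, and Chrm2 and Chrm4 couple to Gi proteins; Chrm1 is a receptor of cortical and hippocampal neurons, Chrm4 of striatal neurons, and Chrm2 is also an autoreceptor of cholinergic neurons.

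The estimated counts summed to between 50912906 and 75678721 per library, to at least 69768244 in each C_W library and to at most 61608502 in each MS_W library. The libraries C_O72 and MS_W95 were unlike the remaining 10: their log2(FPKM + 1) correlated with each other across genes at r = 0.97 but with the others at no more than 0.937, while the other 10 correlated among themselves at 0.959 or above. The score of 11 hindbrain genes, the mean of their log2(FPKM + 1), was 2.21 in C_O72 and 1.32 in MS_W95 and at most 0.01 in the others. The cortical score of 10 genes was 2.04 and 1.93 in these 2 libraries against 3.03 to 4.49 in the others. Neuronal genes were abundant in every library, with a score of 6.69 to 7.35 over 6 genes, but not even between groups. The score was 7.21 to 7.35 in C_W, 6.69 to 7.3 in C_O, 6.82 to 7.01 in MS_W and 7.05 to 7.29 in MS_O. It was lowest in C_O72. The label whole brain thus held libraries in which hindbrain transcripts were at or near 0 and 2 in which they were not, and each group comparison is given with all 12 libraries and with the 10. In bulk tissue, fewer cells of a type and less RNA per cell cannot be told apart.

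Chat and Slc18a3 share 1 locus. The deposited table placed Chat at chr14:32408203-32465957 on the minus strand (mm10) and Slc18a3 at chr14:32462438-32464850 on the same strand. In the GENCODE M21 annotation Slc18a3 is a single exon of 2413 bases, 1139 to 3551 bases after the start of Chat, and it lies inside the first intron of Chat, between the first exon, which ends at base 182, and the one that begins at base 3947. They share 0 exonic bases, so spliced transcripts of Chat and Slc18a3 can be told apart by their exons. Slc5a7 is elsewhere, at chr17:54273590-54299034 on the minus strand.

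**Figure D1:**
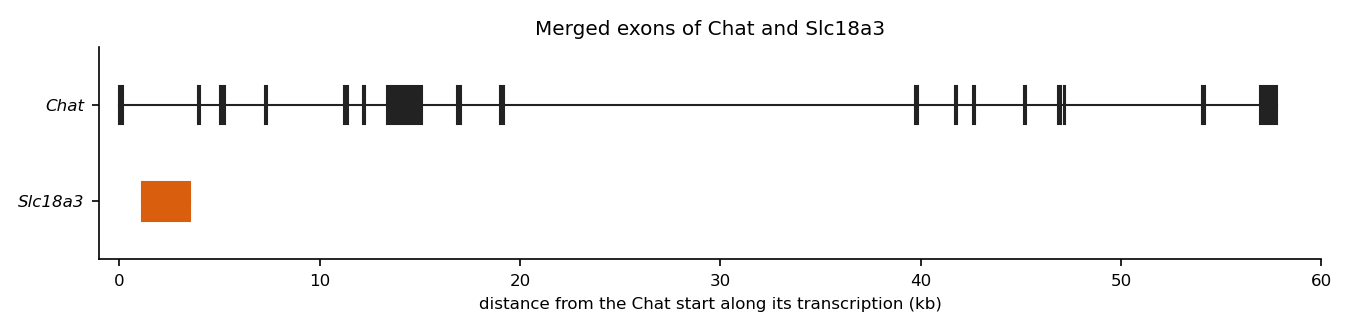
Map of the Chat and Slc18a3 locus. The horizontal axis is the distance in kb from the start of Chat along its direction of transcription, boxes are merged exons and lines are the gene spans in GENCODE M21. The single exon of Slc18a3, 1139 to 3551 bases after the Chat start, falls between the first and the second exon of Chat.

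The RefSeq promoter windows (GRCm38.p6) held 8 of the 9 genes; Chrm1 had no entry. The sequences upstream of the 3 cholinergic neuron genes are shown because these genes varied together in the libraries described below. They run 5' to 3' on the gene's strand without exonic bases, with each CpG dinucleotide in capitals. They cover chr14:32465990-32466159 (170 bases) for Chat, chr14:32464851-32465041 (191 bases, inside the first intron of Chat) for Slc18a3, and chr17:54299035-54299284 (250 bases) for Slc5a7.
Chat: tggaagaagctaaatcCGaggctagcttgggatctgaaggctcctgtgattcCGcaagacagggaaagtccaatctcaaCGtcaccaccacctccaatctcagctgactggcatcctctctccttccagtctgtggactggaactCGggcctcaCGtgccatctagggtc
Slc18a3: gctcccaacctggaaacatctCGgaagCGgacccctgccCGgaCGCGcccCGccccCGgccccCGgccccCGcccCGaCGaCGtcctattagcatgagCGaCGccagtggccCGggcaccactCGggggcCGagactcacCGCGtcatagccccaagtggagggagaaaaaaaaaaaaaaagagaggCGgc
Slc5a7: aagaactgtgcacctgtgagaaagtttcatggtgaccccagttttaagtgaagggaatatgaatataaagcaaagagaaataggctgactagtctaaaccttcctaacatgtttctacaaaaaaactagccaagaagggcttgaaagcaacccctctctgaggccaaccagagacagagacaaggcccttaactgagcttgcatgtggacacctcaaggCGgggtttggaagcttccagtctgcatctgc
The promoters differed in CpG content. The full window of 250 bases held 8 CpG for Chat, 21 for Slc18a3 and 1 for Slc5a7, against a median of 6 over 32851 promoters, and 57.0%, 83.7% and 7.87% of those promoters held fewer. Chrm4 and Ache had 26 and 25 CpG, and Chrm5 had 2. Of the RE1 element that the neuronal silencer REST binds, neither TTCAGCACC (in 0.301% of all promoters, either strand) nor GGACAGC (5.28%, either strand) was found in the window of any of the 8 genes. The LIM homeodomain core TAATTA (4.84% of promoters), which is its own reverse complement, was found only in that of Chrm5. The gene model of Chrm5 holds coding sequence only, and whether its window lies at the start of transcription was not tested.

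Across the 12 libraries Chrm1 had the highest median level among the 9 genes, 24.3 FPKM, followed by Chrm4 at 16.5, Ache at 12.3, Chrm3 at 7.33 and Chrm2 at 3.4 FPKM. The cholinergic neuron genes were lower, with medians of 0.747 FPKM for Chat, 0.581 for Slc18a3 and 0.447 for Slc5a7, and Chrm5 was the lowest at 0.0676 FPKM. FPKM are per length, but the gene models were unlike. Those of Chrm4 and Chrm5 held 1440 and 1599 exonic bases, against 6053 to 6487 for Chrm1, Chrm2 and Chrm3. Levels of different genes can be set beside each other only with this limit. Chrm2 lay above Chat and Slc5a7 above Chrm5 in 12 of 12 libraries. Chrm1 lay above Chrm4 in 8, Chrm4 above Ache in 10, Ache above Chrm3 in 10 and Chrm3 above Chrm2 in 9 libraries. Chat and Slc18a3 were in the order of their medians in 6 libraries, as were Slc18a3 and Slc5a7, so the order of these 3 was not stable. No stretch shared by the transcripts of any 2 muscarinic receptors was longer than 29 bases. On the opposite strand, Ache shared 98 exonic bases with Gm42456, Chrm1 329 with Gm22820 and Chrm2 142 with 9330158H04Rik; the libraries were made with dUTP, but whether strand was used in the estimates is not given in the sources used here.

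The MS_W against C_W comparison asked whether CUMS without krill oil went with a change in these genes. All 3 cholinergic neuron genes were higher in every MS_W library than in every C_W library. Chat was at 0.22, 0.0604 and 0.13 FPKM in C_W1, C_W64 and C_W70, and at 2.1, 2.75 and 1.53 FPKM in MS_W31, MS_W75 and MS_W95. The lowest MS_W library was thus well above the highest C_W library, and the mean was 2.13 ± 0.611 FPKM (SD, n = 3) against 0.137 ± 0.0801, a ratio of 15.6. Slc18a3 was at 0.206, 0.0987 and 0.23 FPKM in C_W and at 1.85, 3.66 and 3.26 FPKM in MS_W, in the same order of mice. Slc5a7 was at 0.234, 0.104 and 0.307 FPKM in C_W and at 1.92, 2.49 and 2.05 FPKM in MS_W. Neither gene overlapped between the groups, and the means were 2.92 ± 0.952 against 0.178 ± 0.0699 FPKM for Slc18a3, a ratio of 16.4, and 2.15 ± 0.302 against 0.215 ± 0.103 FPKM for Slc5a7.

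**Figure D2:**
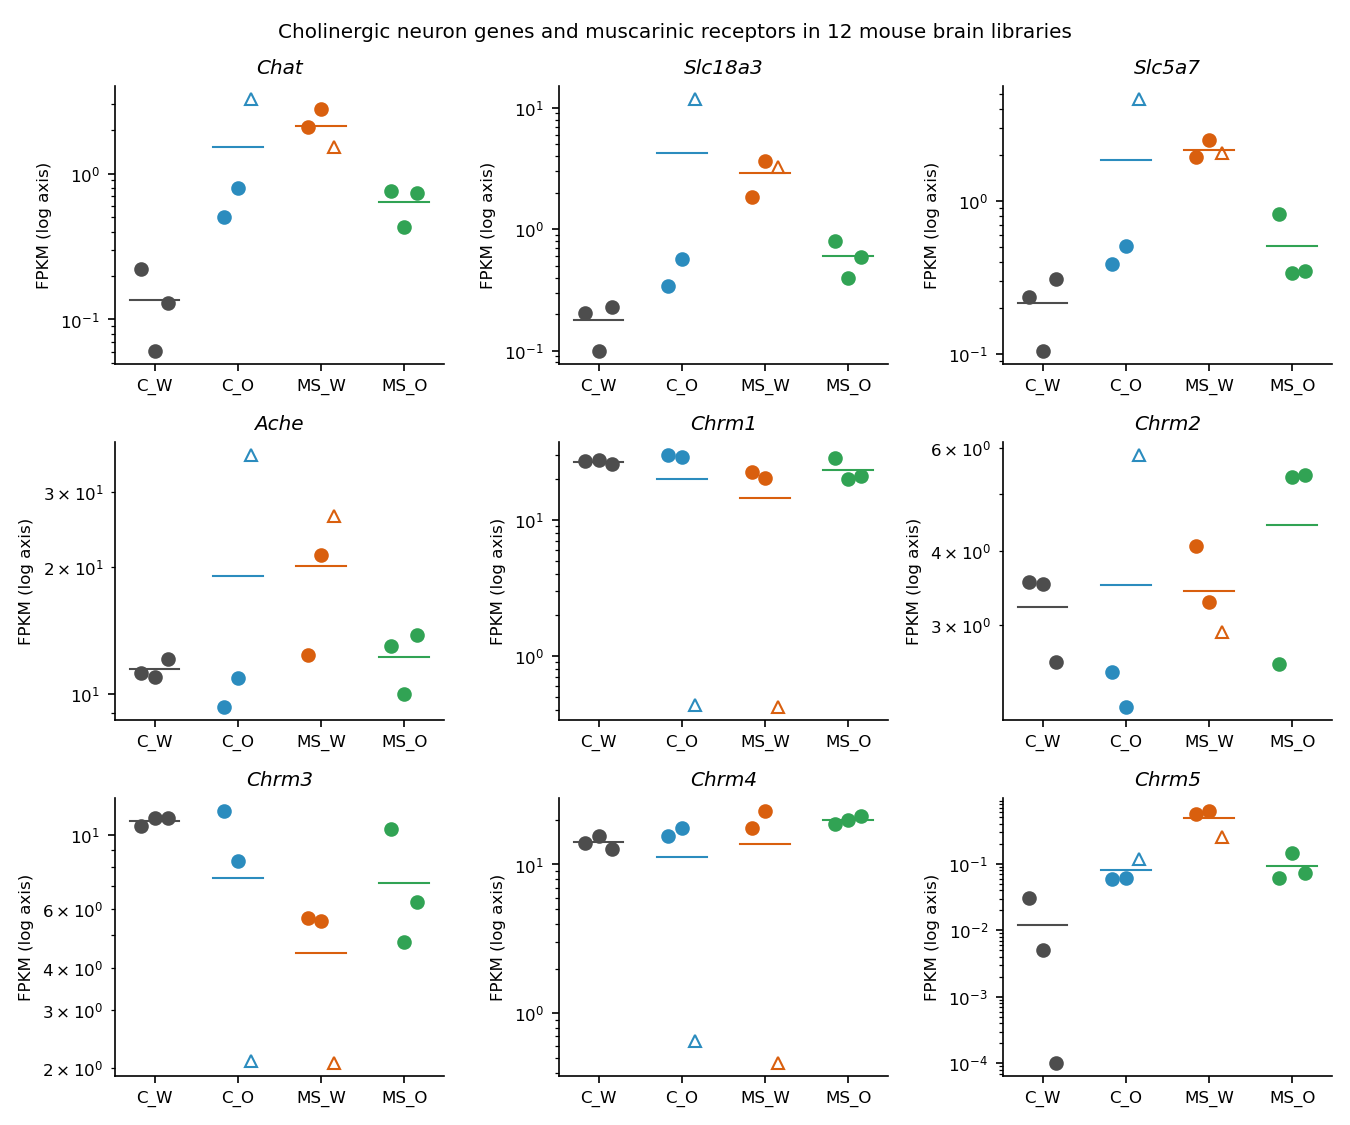
FPKM of the 9 genes (log axes that differ between panels) by group. Each point is 1 library, open triangles mark C_O72 and MS_W95, and lines are group means (n = 3). Chat, Slc18a3 and Slc5a7 lie lowest in C_W and high in MS_W, and Chrm1 and Chrm4 fall below 1 FPKM in the triangles alone.

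With all 12 libraries, limma on log2(FPKM + 1) called 0 of the 9 genes at an adjusted p under 0.05 in MS_W against C_W, where 0.00467% of all genes were called. On the estimated counts edgeR also called 0 and DESeq2 called 3, where they called 1 and 389 of all 21393 genes. At an unadjusted p under 0.05 limma gave 5 of 9, against 10.5% of all genes. The thresholds of the study for differentially expressed genes were also applied (unadjusted p under 0.05 and a change of the mean FPKM above 1 on the log2 scale, called the study's criteria below), but with p from limma, where the authors used the R package Ballgown. By them 5 of 9 passed, against 4.59% of all genes: Chat, Slc18a3, Slc5a7 and Chrm5 were higher (2.5% of all genes) and Chrm3 lower (2.1%). The groups did not overlap for 7 of 9, against 24.6% of all genes, with 5 higher in MS_W (16.3% of all genes) and 2 lower (8.22%). Over the 8 genes without Chrm5 the counts were 4 at an unadjusted p under 0.05, 4 by the criteria and 6 without overlap. The fitted differences in log2(FPKM + 1), with their SE and adjusted p, were 1.44 ± 0.322 (0.223) for Chat, 1.71 ± 0.675 (0.431) for Slc18a3, and 1.38 ± 0.429 (0.335) for Slc5a7. An exact permutation test of 3 against 3 libraries cannot give a p below 0.1. The pseudocount of 1 compresses differences of genes this low.

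Leaving out C_O72 and MS_W95 changed the calls. In the fit of 10 libraries, limma called 4 of 9 genes in MS_W against C_W, against 1.15% of all genes, 1 of them Chrm5. Over the other 8 genes 3 were called, and all 3 rose: Chat by 1.59 ± 0.138 (adjusted p = 0.00193), Slc18a3 by 1.63 ± 0.201 (adjusted p = 0.0107) and Slc5a7 by 1.40 ± 0.156 (adjusted p = 0.00655) in log2(FPKM + 1). The fitted difference of Chrm5 was 0.66 ± 0.0571. The MS_W group then held 2 libraries. C_O72 belongs to neither group, and leaving out it alone gave the same 4 calls, with adjusted p of 0.00508 for Chat, 0.00508 for Slc18a3 and 0.00395 for Slc5a7, through the spread that the groups share. That fit called 101 of all 21393 genes. Without MS_W95 alone, Chrm5 was called and none of the other 8 was, where 58 of all genes were called.

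**Figure D3:**
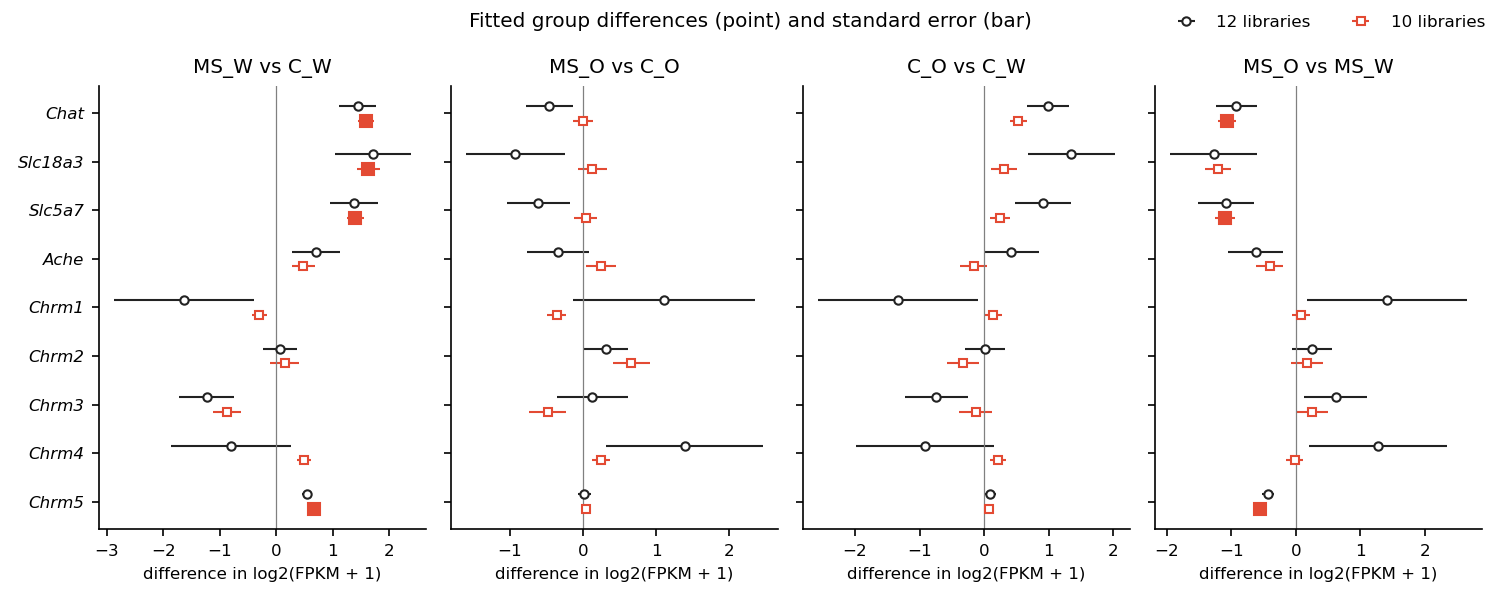
Fitted differences in log2(FPKM + 1) between groups, with SE as bars, for all 12 libraries (circles) and for the 10 without C_O72 and MS_W95 (squares). Filled symbols passed an adjusted p under 0.05. With 12 libraries none is filled, while with 10 Chat, Slc18a3, Slc5a7 and Chrm5 are filled in MS_W vs C_W and Chat, Slc5a7 and Chrm5 in MS_O vs MS_W.

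Ache was at 11.2, 11.0 and 12.1 FPKM in C_W and at 12.4, 21.3 and 26.4 FPKM in MS_W. The groups did not overlap, but MS_W31 lay close to the highest C_W library. The difference was 0.70 ± 0.428 in log2(FPKM + 1) (limma, adjusted p = 0.57), and 0.48 ± 0.209 with 10 libraries (adjusted p = 0.327). Ache, unlike Chat, is also made by cells that receive acetylcholine.

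The receptors did not move in 1 direction in MS_W against C_W. Chrm5, a Gq-coupled receptor known from midbrain dopamine neurons, was at 0.0305, 0.00507 and 0.0001 FPKM in C_W and at 0.562, 0.634 and 0.254 FPKM in MS_W. These levels rested on 5, 1 and 0 estimated counts against 58, 59 and 29. The groups did not overlap, and the fitted difference was 0.54 ± 0.0922, in a gene that MS_W alone brought past the filter. A count of 0 allows up to 3 reads, and 0.0001 is the value listed for a gene without an estimate.

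Chrm3, which couples to Gq and was the receptor with the tightest C_W group, was at 10.6, 11.2 and 11.2 FPKM in C_W and at 5.65, 5.52 and 2.07 FPKM in MS_W. It was lower in all MS_W libraries, with a difference of -1.23 ± 0.488 (limma, adjusted p = 0.431), and of -0.87 ± 0.254 with 10 libraries (adjusted p = 0.165). Chrm1 was at 27.1, 27.9 and 25.8 FPKM in C_W and at 22.8, 20.6 and 0.416 FPKM in MS_W. It did not overlap either, but most of its difference of -1.63 ± 1.24 came with MS_W95: it was -0.30 ± 0.135 with 10 libraries (limma, adjusted p = 0.633 with 12 and 0.338 with 10). Chrm4 was at 14.0, 15.5 and 12.8 FPKM in C_W and at 17.6, 23.0 and 0.461 FPKM in MS_W. Its difference turned from -0.80 to 0.49 ± 0.126 (adjusted p = 0.128) when C_O72 and MS_W95 were left out. Chrm2, at 3.55, 3.52 and 2.59 FPKM in C_W and 4.08, 3.28 and 2.92 FPKM in MS_W, overlapped between the groups.

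Markers of brain regions moved with this comparison. The striatal score of 10 genes, Drd1 and Drd2 among them, was 2.25 to 3.25 in C_W, 5.2 and 5.77 in MS_W31 and MS_W75, and 2.19 in MS_W95. With 10 libraries, 10 of the 10 striatal genes were called higher in MS_W, and 2 of 10 cortical genes were called lower. Of all 21393 genes 220 were called higher and 26 lower. The cortical score was 4.12 to 4.38 in C_W and 3.24, 3.21 and 1.93 in MS_W. The score of 5 blood genes was 4.37 to 4.73 in C_W and 2.55, 1.59 and 5.61 in MS_W. With 10 libraries 5 of 5 blood genes were lower by the study's criteria and none was called by adjusted p. In that fit 1242 of all 21393 genes passed the criteria in either direction. No gene of the 3 lists was listed at 0 in C_W or in MS_W31 and MS_W75. Their part in the differences of the cholinergic genes was not tested.

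The MS_O against C_O comparison asked the same question in mice on krill oil. Limma called 0 of 9 genes with 12 libraries and 0 of 9 with 10, where 0.00467% and 0.014% of all genes were called, and 0 of 9 had an unadjusted p under 0.05 with 12 libraries (8.88% of all genes) and 2 with 10 (13.6%). Both edgeR and DESeq2 called 0, where they called 1 and 172 of all 21393 genes. By the study's criteria 0 of 9 passed, against 3.57% of all genes. Chat was at 0.503, 0.79 and 3.26 FPKM in C_O15, C_O30 and C_O72 and at 0.763, 0.432 and 0.731 FPKM in MS_O13, MS_O46 and MS_O78. Slc18a3 was at 0.338, 0.569 and 11.9 FPKM in C_O and at 0.802, 0.399 and 0.593 FPKM in MS_O. C_O72 was the library with the highest Slc18a3, and the groups overlapped for both genes. Slc5a7 was at 0.386, 0.508 and 4.65 FPKM in C_O and at 0.825, 0.336 and 0.351 FPKM in MS_O, and it overlapped too.

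Chrm4 was the only gene of the 9 whose groups did not overlap in MS_O against C_O, where 12.2% of all genes did not and 8.9% were higher in MS_O. It was at 15.6, 17.5 and 0.654 FPKM in C_O and at 18.6, 19.9 and 21.1 FPKM in MS_O. The difference was 1.39 ± 1.07 (limma, adjusted p = 0.717) and 0.25 ± 0.126 without C_O72 and MS_W95 (adjusted p = 0.407). Chrm1, at 30.4, 29.4 and 0.436 FPKM in C_O and 28.5, 20.1 and 21.1 FPKM in MS_O, was lower in every MS_O library than in C_O15 and C_O30, by 0.36 in log2(FPKM + 1) with 10 libraries (adjusted p = 0.342). Chrm2 was at 2.49, 2.17 and 5.84 FPKM in C_O and at 2.57, 5.34 and 5.39 FPKM in MS_O. With 10 libraries it was higher in every MS_O library, by 0.66 ± 0.252 (adjusted p = 0.344). Chrm3 was at 11.8, 8.37 and 2.1 FPKM in C_O and at 10.4, 4.78 and 6.29 FPKM in MS_O, and Ache was at 9.3, 10.9 and 36.8 FPKM in C_O against 9.98 to 13.8 FPKM in MS_O. Both overlapped between the groups.

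Krill oil without CUMS (C_O against C_W) went with higher Chat, Slc18a3 and Slc5a7 in each of the 3 C_O libraries than in any C_W library, and C_O72 was far above the other 2. Limma called 0 of 9 genes with 12 libraries, where 0% of all genes were called, and 0 of 9 with 10, where 0.00467% were. In each fit 1 of 9 had an unadjusted p under 0.05, against 3.55% and 4.06% of all genes. EdgeR also called 0 while DESeq2 called 2, where they called 0 and 54 of all 21393 genes. By the study's criteria 1 of 9 passed, against 1.76% of all genes and 0.865% higher in C_O: Chat, at 0.99 ± 0.322 (unadjusted p = 0.0113, adjusted p = 0.908). The groups did not overlap for 4 of 9 (3 of the 8 without Chrm5), against 9.42% of all genes, and all 4 were higher in C_O, against 4.08%. The other 3 differences were 1.35 ± 0.675 for Slc18a3, 0.91 ± 0.429 for Slc5a7 and 0.09 ± 0.0922 for Chrm5, each with an adjusted p of 0.908 in limma. Without C_O72 and MS_W95 these values became 0.53 ± 0.138 for Chat, 0.30 ± 0.201 for Slc18a3, 0.25 ± 0.156 for Slc5a7 and 0.07 ± 0.0571 for Chrm5. The direction was the same and the differences of Chat, Slc18a3 and Slc5a7 were smaller by more than 1.5 times. Chrm5 was at 0.0593, 0.0624 and 0.119 FPKM in C_O, from 8, 7 and 11 estimated counts. The striatal score was 4.03 and 4.6 in C_O15 and C_O30, above its 2.25 to 3.25 in C_W. With 10 libraries 10 of 10 striatal genes passed the study's criteria, where 350 of all 21393 genes did. The part of the striatal score in these differences was not tested.

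Krill oil under CUMS (MS_O against MS_W) went with the opposite direction. Chat, Slc18a3, Slc5a7 and Chrm5 were lower in every MS_O library than in every MS_W library, 4 of 9 genes, where the groups did not overlap for 12.3% of all genes and 7.66% were lower in MS_O. Chrm5 passed the filter only through MS_W, and over the other 8 genes 3 did not overlap. The mean of Chat was 0.642 ± 0.182 FPKM (SD, n = 3) in MS_O against 2.13 ± 0.611 in MS_W, a ratio of 0.302. For Slc18a3 and Slc5a7 the ratios were 0.205 and 0.234, and for Chrm5, at 0.0624, 0.147 and 0.0727 FPKM in MS_O, it was 0.195. MS_O levels lay between those of C_W and MS_W for all 4 genes. Limma called 0 of 9 with 12 libraries, where 0.00467% of all genes were called. EdgeR and DESeq2 also called 0 of 9, where they called 1 and 79 of all 21393 genes. At an unadjusted p under 0.05 there were 3 of 9, against 6.09% of all genes, and the same number passed the study's criteria, against 2.81% of all genes and 1.39% lower in MS_O. These were Chat (-0.92 ± 0.322, adjusted p = 0.79), Slc5a7 (-1.08 ± 0.429, adjusted p = 0.805) and Chrm5 (-0.43 ± 0.0922), so 2 of the 8 genes without Chrm5, while Slc18a3 had -1.27 ± 0.675 (adjusted p = 0.831).

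With 10 libraries limma called 3 of 9 genes in MS_O against MS_W, against 0.271% of all genes, and 2 of the 8 without Chrm5. Chat fell by 1.06 ± 0.138 (adjusted p = 0.0292) and Slc5a7 by 1.10 ± 0.156 (adjusted p = 0.042) in log2(FPKM + 1). Chrm5 had -0.55 ± 0.0571, and Slc18a3 had -1.20 ± 0.201 (adjusted p = 0.0764). Without C_O72 alone, Slc5a7 (adjusted p = 0.0253) and Slc18a3 (0.0367) were called, and without MS_W95 alone Chrm5 and none of the other 8. These 2 fits called 31 and 13 of all 21393 genes. The 5 other genes overlapped between MS_O and MS_W in both fits. The striatal score was 4.08 to 4.95 in MS_O, below that of MS_W31 and MS_W75. With 10 libraries the median difference of the striatal genes was -0.97, against -0.000505 over all genes. Of these 10 genes 3 passed the study's criteria and 0 were called, where 718 of all 21393 genes passed and 58 were called. The part of striatal content in the differences of the cholinergic genes was not tested. MS_W enters this comparison and the one with C_W, so the 2 are not independent.

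The interaction, the CUMS difference on krill oil minus that on water, was negative for the cholinergic neuron genes. It was -1.91 ± 0.456 for Chat (adjusted p = 0.502), -2.62 ± 0.955 for Slc18a3 (adjusted p = 0.665), -1.99 ± 0.607 for Slc5a7 (adjusted p = 0.665) and -0.52 ± 0.13 for Chrm5. These 4 of 9, and 3 of the 8 without Chrm5, had an unadjusted p under 0.05 in limma, against 7.23% of all genes. Limma called 0 of 9, edgeR 0 and DESeq2 3, where edgeR called 0 and DESeq2 151 of all 21393 genes. With 10 libraries the test called 2 of 9, against 0.145% of all genes: Chat at -1.59 ± 0.195 (adjusted p = 0.0289), the 1 call among the 8, and Chrm5, at -0.62 ± 0.0808. The other 5 genes had interactions from -1.04 to 2.74 with 12 libraries and none had an unadjusted p under 0.05.

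The mix of muscarinic receptors differed in C_O72 and MS_W95 from that in the other 10 libraries. The summed FPKM of the 5 receptors was 50.3 to 60.2 in 10 libraries but 9.15 in C_O72 and 6.12 in MS_W95. Chrm1 made up 38.8% to 51.1% of this sum in the 10, and 4.77% and 6.80% in the 2. Chrm2 made up 3.77% to 10.6% in the 10, and 63.8% and 47.7% in the 2, where it was the most abundant receptor. Its own level, 5.84 and 2.92 FPKM, was the highest of all libraries in C_O72 and within the range of the others in MS_W95. Chrm1 and Chrm4 were both under 1 FPKM in these 2 libraries.

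**Figure D4:**
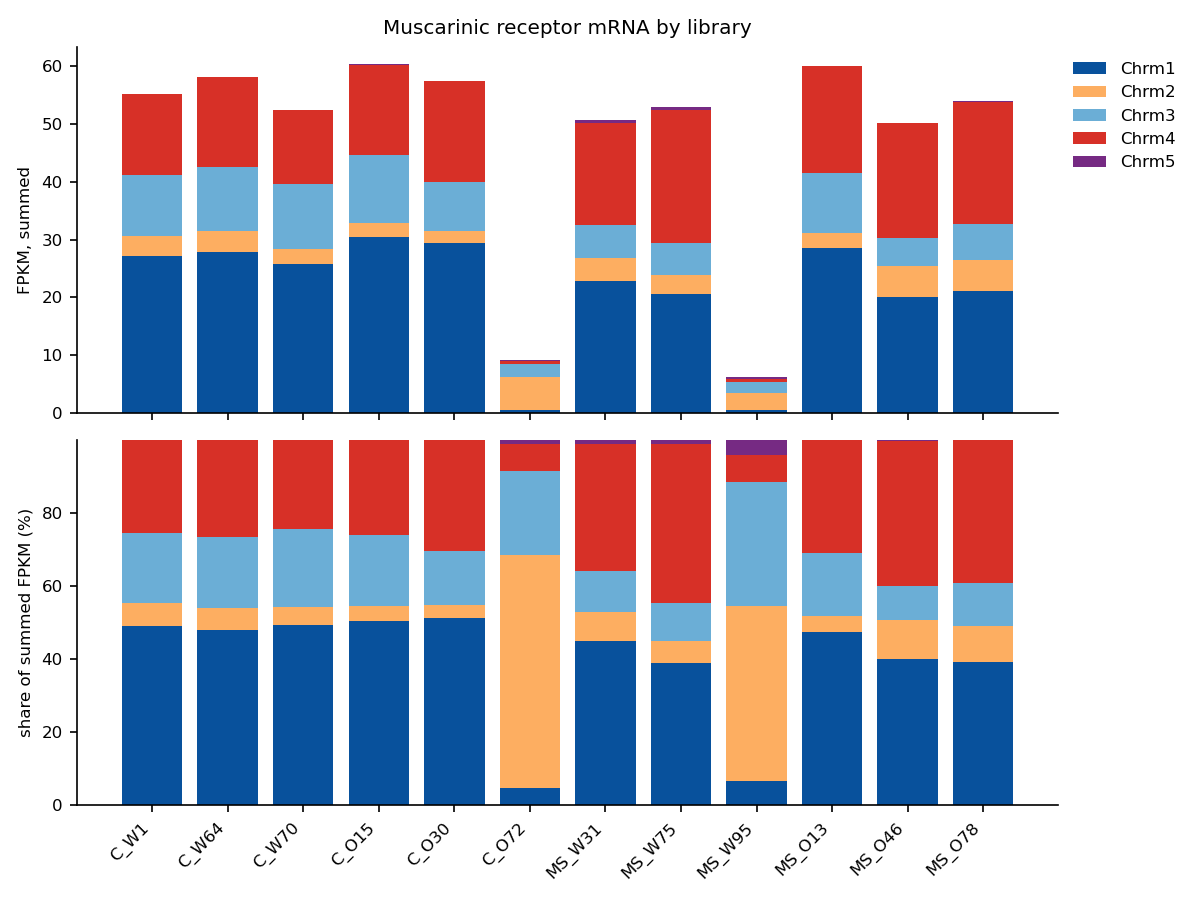
Muscarinic receptor mRNA by library, as FPKM stacked by receptor (top) and as the share of the summed FPKM in percent (bottom). C_O72 and MS_W95 sum to 9.15 and 6.12 FPKM with Chrm2 as the largest part, and the other 10 sum to 50.3 to 60.2 FPKM with Chrm1 and Chrm4 as the largest parts.

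Among the other 10 libraries the balance of Chrm4 to Chrm1 differed. The ratio of their FPKM was 0.515, 0.557 and 0.499 in C_W, 0.512 and 0.596 in C_O, 0.774 and 1.12 in MS_W, and 0.654, 0.989 and 1.0 in MS_O. It was lower in every C_W library than in every one of the 5 CUMS libraries, and no test was run on it. The Gi-coupled receptors Chrm2 and Chrm4 together made up 29.5% to 32.8% of the sum in C_W, 42.8% and 49.6% in MS_W31 and MS_W75, and 35.2% to 50.2% in MS_O. The cortical score was 3.03 to 4.01 and the striatal score 4.08 to 5.77 in these 5 CUMS libraries. In C_O15 and C_O30, with ratios of 0.512 and 0.596, the striatal score was 4.03 and 4.6 and the cortical score 4.49 and 4.13. The part of these scores in the ratio was not tested.

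High levels of Chat, Slc18a3 and Slc5a7 occurred together with different neighbouring genes in different libraries. Lhx8 and Nkx2-1, transcription factors of the ventral forebrain from which striatal and basal forebrain cholinergic neurons arise, were at 3.08 and 1.37 FPKM in MS_W31 and at 3.99 and 1.59 FPKM in MS_W75. Both were listed at 0.0001 FPKM in C_O72 and MS_W95. In the other 8 libraries Lhx8 was at most 0.656 FPKM and Nkx2-1 at most 0.247 FPKM. Not all genes of their list had this pattern. Zic4 was highest in C_O72 and MS_W95, at 1.65 and 1.99 FPKM, and Gbx2 was at 1.38 and 0.922 FPKM there against 0.537 and 0.977 in MS_W31 and MS_W75.

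The motor neuron and hindbrain genes other than Uts2 showed the reverse, with their highest levels in C_O72 and MS_W95. Uts2 was at 1.51 FPKM in C_O72 but at 0.255 in MS_W95, against up to 0.384 in the other 10 libraries. Prph, an intermediate filament of neurons with peripheral axons, was at 24.7 FPKM in C_O72 and 7.08 in MS_W95 and at most 0.611 in the other 10 libraries. Slc6a5, the glycine transporter of brainstem and spinal neurons, was at 47.2 and 16.4 FPKM against at most 0.0538. Colq, the collagen tail that anchors acetylcholinesterase at the neuromuscular junction, was at 2.6 and 2.03 FPKM against at most 0.37. Ngfr, the p75 neurotrophin receptor of basal forebrain cholinergic neurons, was high in both sets, at 3.68, 4.1 and 2.43 FPKM in MS_W and 5.24 in C_O72. In C_W it was at most 0.495 FPKM.

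**Figure D5:**
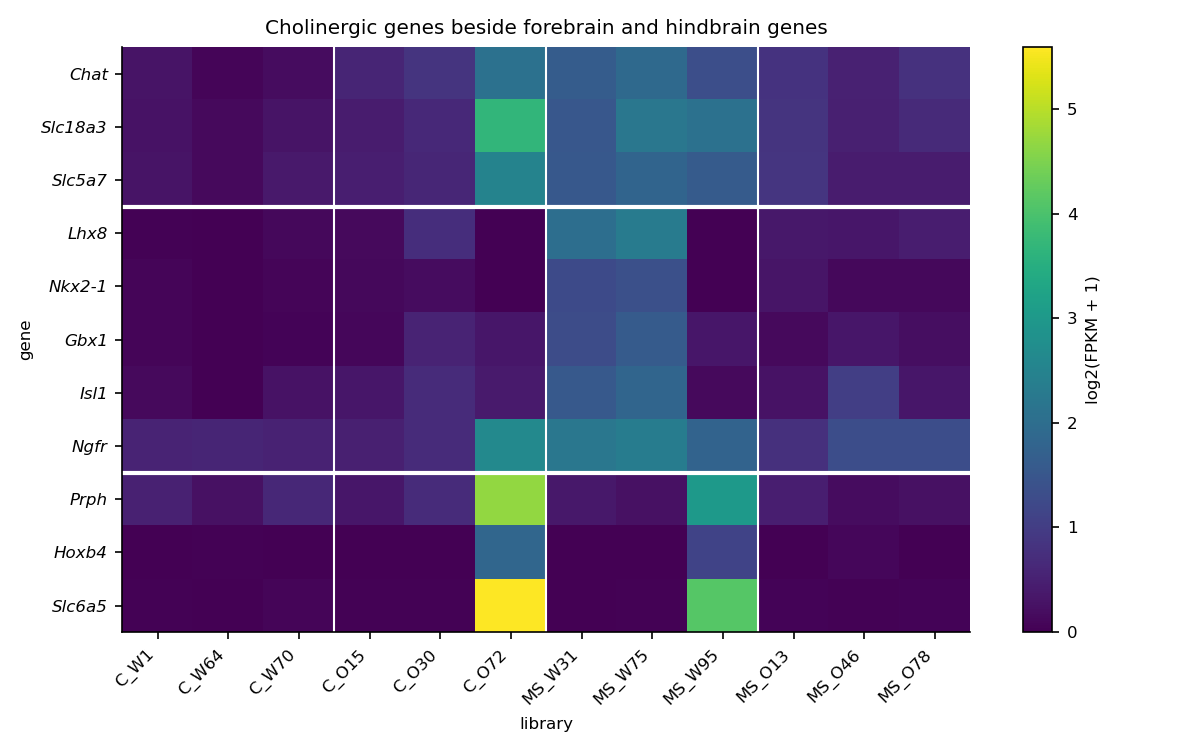
Levels in log2(FPKM + 1) (colour) of the cholinergic neuron genes (top block), genes of forebrain cholinergic neurons (middle block), and motor neuron and hindbrain genes (bottom block) in the 12 libraries, with white lines between groups. The top block is bright in all MS_W libraries and C_O72, while Lhx8 and Nkx2-1 are bright in MS_W31 and MS_W75 alone and the bottom block in C_O72 and MS_W95 alone.

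The mean of log2(FPKM + 1) over Chat, Slc18a3 and Slc5a7 was 1.56, 1.98 and 1.68 in MS_W31, MS_W75 and MS_W95. These similar values of the 3 MS_W libraries stood beside a hindbrain score of 0, 0 and 1.32. C_O72 had the highest value at 2.76, C_O15 and C_O30 had 0.49 and 0.69, MS_O had 0.47 to 0.85 and C_W had 0.12 to 0.29. The part of tissue content in these values was not tested.

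Of 8 genes listed for basal forebrain, striatal and motor cholinergic neurons, among them Slc17a8, a vesicular glutamate transporter of striatal cholinergic interneurons, 6 passed the study's criteria higher in MS_W than in C_W with 12 libraries: Ngfr, Lhx8, Gbx1, Gbx2, Isl1 and Nkx2-1. By these criteria 2.5% of all genes were higher in MS_W. The median difference over the 8 was 0.93 in log2(FPKM + 1), against 0.0617 over all genes, and none was called by adjusted p. With 10 libraries 6 were called higher, where 220 of all 21393 genes were. Their differences were 2.13 for Lhx8, 1.73 for Ngfr, 1.55 for Isl1, 1.40 for Gbx1, 1.26 for Nkx2-1 and 0.74 for Gbx2. Nkx2-1, like Chrm5, passed the filter on low values only through MS_W. Its differences from MS_W are therefore a description, although it is included in the counts of this list. In MS_O against MS_W the median was -0.66, and 4 passed the criteria lower (Lhx8, Gbx1, Gbx2 and Nkx2-1), against 1.39% of all genes. With 10 libraries 4 were called lower, where 55 of all 21393 genes were. Their differences were -1.79 for Lhx8, -1.21 for Gbx1, -1.15 for Ngfr and -1.12 for Nkx2-1. None passed the criteria with 12 libraries in C_O against C_W, where the smallest p were those of Gbx2 (0.45, limma adjusted p = 0.908) and Ngfr (0.71, adjusted p = 0.908), or in MS_O against C_O, with Gbx2 (-0.29, adjusted p = 0.749) and Gbx1 (-0.10, adjusted p = 0.925).

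The nicotinic receptors are the ion channels opened by acetylcholine. Of 16 subunit genes 11 were tested, and none was called in any comparison with 12 or with 10 libraries. In MS_W against C_W their median was 0.06, and with 12 libraries only Chrna5 passed the study's criteria. It was at 0.717, 0.769 and 0.777 FPKM in C_W and 0.337, 0.344 and 0.204 FPKM in MS_W, without overlap, a difference of -0.44 ± 0.14 (limma, adjusted p = 0.352). With 10 libraries 4 passed, where 1242 of all 21393 genes did: Chrna2 higher (0.43) and Chrna5 (-0.39), Chrna6 (-0.20) and Chrnb3 (-0.42) lower. Chrna6 passed the filter on low values only through MS_W95, at 0.857 FPKM, which this fit leaves out. It was listed at 0.0001 FPKM in MS_W31 and MS_W75, so its pass rests on values without an estimate. In MS_O against C_O Chrna10 (1.34 ± 0.479, adjusted p = 0.492) and Chrnb4 (0.79 ± 0.295, adjusted p = 0.504) passed the criteria higher, each with overlapping groups, and with 10 libraries Chrna3 (0.72) passed as well. With 10 libraries Chrna6 (-0.18) passed lower in C_O against C_W, with C_O15 at 0.0326 FPKM and C_O30 listed at 0.0001. With 12 libraries none passed in C_O against C_W or MS_O against MS_W, where the smallest p were those of Chrna5 (-0.36, adjusted p = 0.908) and Chrna7 (0.18, adjusted p = 0.908), and of Chrna10 (0.80, adjusted p = 0.836) and Chrnb2 (-0.23, adjusted p = 0.837). Chrna4 and Chrnb2, the subunits of the main high-affinity receptor of the brain, were at 4.07 to 9.97 and 8.0 to 13.8 FPKM.

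Of 6 partners of nicotinic receptors, which fold them or bind them at the membrane, none was called, and Lypd1 alone passed the criteria, lower in MS_O than in MS_W (-0.91 ± 0.406, adjusted p = 0.817, and -1.37 ± 0.283 with 10 libraries, adjusted p = 0.152, by limma). The smallest p elsewhere were those of Tmem35a (0.62, limma adjusted p = 0.448) and Lynx1 (-0.56, adjusted p = 0.504) in MS_W against C_W, of Lynx1 (-0.54, adjusted p = 0.598) and Lypd6 (0.80, adjusted p = 0.637) in MS_O against C_O, and of Tmem35a (0.31, adjusted p = 0.908) and Lypd6 (-0.35, adjusted p = 0.913) in C_O against C_W.

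Of 13 genes of choline uptake, choline phosphorylation and cholinesterase anchoring, 11 were tested and none was called. Prima1, the membrane anchor of acetylcholinesterase in the brain, passed the criteria in MS_W against C_W. It was at 1.06, 0.932 and 1.51 FPKM in C_W and 2.87, 4.76 and 2.67 FPKM in MS_W, without overlap, a difference of 1.01 ± 0.339 (limma, adjusted p = 0.358). With 10 libraries Slc44a5 (0.67) passed there too. Flvcr1 passed in C_O against C_W (0.73 ± 0.298, adjusted p = 0.908), at 3.74 FPKM in C_O72 and 0.993 in C_O30, and no gene of the list passed there without C_O72 and MS_W95. Elsewhere the smallest p were those of Pcyt1a (-0.76, adjusted p = 0.596) and Chkb (0.24, adjusted p = 0.631) in MS_O against C_O, and of Chka (-0.30, adjusted p = 0.831) and Prima1 (-0.49, adjusted p = 0.837) in MS_O against MS_W. The medians of this list were 0.28 in MS_W against C_W and -0.13 in MS_O against MS_W.

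Of 16 genes for effectors of muscarinic receptors, none was called with 12 libraries. In MS_W against C_W 12 of the 16 differences were negative, with a median of -0.20 against 0.0617 for all genes. Rgs8, a regulator that shortens G protein signals, passed the criteria there (1.57 ± 0.582, adjusted p = 0.401) and in MS_O against MS_W (-1.55 ± 0.582, adjusted p = 0.79). Its MS_W levels were 11.4, 15.4 and 82.1 FPKM, so MS_W95 was far above the other 2. With 10 libraries the differences of Rgs8 were 0.72 ± 0.226 and -0.70 ± 0.226, and it passed the criteria in neither. None passed in MS_O against C_O, where the smallest p were those of Gnai1 (0.45, limma adjusted p = 0.479) and Adcy5 (0.59, adjusted p = 0.776), or in C_O against C_W, with Gnai1 (-0.36, adjusted p = 0.908) and Gnaq (-0.23, adjusted p = 0.908). With 10 libraries Adcy5, the adenylyl cyclase of striatal neurons, was called higher in MS_W than in C_W (1.83, adjusted p = 0.00766).

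Correlations between the 9 genes were taken over the 10 libraries, since C_O72 and MS_W95 formed a cluster of their own, and 36 pairs were compared. Pearson's r of log2(FPKM + 1) was 0.973 for Chat with Slc18a3 (Spearman's rho 0.939, permutation p = 1e-05 and 0.0002, adjusted p = 0.00018 and 0.00276). It was 0.963 for Chat with Slc5a7 (rho 0.964, permutation p = 1e-05 and 5e-05, adjusted p = 0.00018 and 0.0018) and 0.978 for Slc18a3 with Slc5a7 (rho 0.939, permutation p = 2e-05 and 0.00023, adjusted p = 0.00024 and 0.00276). Here 1e-05 is the smallest p that 100000 permutations can give. Without MS_W31 and MS_W75, the libraries farthest from the median, these r were 0.941, 0.799 and 0.905. The relation among the 3 genes thus did not rest on these 2 libraries alone. Over all 12 libraries with group means subtracted, r was 0.922, 0.94 and 0.98 in the same order. Without C_O15 and C_O72, the libraries farthest from the median there, it was 0.612, 0.717 and 0.888. Chrm5 correlated with Chat at 0.930 (rho 0.818), which dropped to 0.592 without MS_W31 and MS_W75 and so rested largely on them. This is a description, since MS_W brought Chrm5 past the filter and Chat was high there too.

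Among the receptors other pairs passed. Chrm1 correlated with Chrm3 at 0.892 (rho 0.782, permutation p = 0.00257 and 0.0103, adjusted p = 0.0154 and 0.0346) and with Chrm2 at -0.794 (rho -0.782, permutation p = 0.00813 and 0.0106, adjusted p = 0.0366 and 0.0346). Without the 2 libraries farthest from the median of Chrm1, MS_W75 and MS_O46, these were 0.793 and -0.860. Chrm3 and Chrm4 were at -0.777 (rho -0.782, permutation p = 0.0103 and 0.0104, adjusted p = 0.04 and 0.0346), and at -0.677 without MS_W75 and MS_O46. The sign of this relation depended on the libraries: over all 12 with group means subtracted, r was 0.856 (rho 0.629, adjusted permutation p = 0.00247 for r). For Chrm1 with Chrm2 the same step gave -0.461 (rho -0.587, adjusted permutation p = 0.18), and for Chat with Chrm5 it gave 0.428 (rho 0.427, adjusted permutation p = 0.192). In all, 11 of 36 pairs had an adjusted p under 0.05 for r. Among them were the pairs of Chrm5 with Chat, Slc18a3, Slc5a7 and Chrm3, in a gene that passed the filter only through MS_W. The libraries share groups, regional scores and a source, so the points are not independent of the design.

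As a description, the other genes most like each member were sought over the 12 libraries among 13613 genes with a mean of at least 1 FPKM. For Chat these were Slc10a4 (r = 0.978), Pomgnt2 (0.973) and Ecel1 (0.956), and r over the 10 libraries was 0.985, 0.962 and 0.983. For Slc18a3 they were Skap2 (0.989), Slc25a1 (0.973) and Stk32a (0.967), and for Slc5a7 Slc25a1 (0.982), Skap2 (0.973) and Pomgnt2 (0.968). Pomgnt2 moved between 9.25 and 13.5 FPKM and Slc10a4 between 0.0679 and 6.14 FPKM, so a like pattern did not mean a like range. For Ache they were Psmd6 (0.972), Fntb (0.963) and 2010001A14Rik (0.958). For Chrm5 they were Gpr101 (0.945), Pdxk (0.944) and Gaa (0.924).

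For Chrm1 and Chrm4, likeness was lower over the 10 libraries than over the 12. Chrm1 had Ctxn1 (0.996), Dlgap2 (0.995) and Camk2a (0.994), with 0.655, 0.821 and 0.938 over the 10. Chrm4 had Dbn1 (0.995), Kcnj4 (0.993) and Ptk2b (0.993), with 0.821, 0.803 and 0.712 over the 10. Chrm3 had Gm11549 (0.994), Lrrc8b (0.993) and Epop (0.990), which stayed at 0.985, 0.979 and 0.975. Chrm2 had Gem (0.951), Fuom (0.947) and Arhgef6 (0.940), with 0.962, 0.944 and 0.963.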

How the data were processed

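Whole-brain poly(A) RNA of 12 mice, 3 in each of 4 groups given by the labels, was sequenced by the authors. According to the submitters' processing notes, reads were handled with cutadapt 1.9, HISAT2 2.0.4 and StringTie 1.3.4d on mm10, and edgeR and DESeq2 are also named. The deposited FPKM per gene are the authors' StringTie values, and the deposited estimated counts, rounded to whole numbers for the count tests, follow from them: for 533 genes with a single transcript they equalled FPKM times length with a median deviation of 0.00813%. FPKM do not show the depth behind a value, so low genes such as Chrm5 rest on few reads.

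From these, log2(FPKM + 1) of 21393 genes with a mean of at least 0.1 FPKM was fitted in 1 model of 4 groups with limma 3.58.1 (moderated variance with a trend, R 4.3.3), and p-values were adjusted by Benjamini-Hochberg over all of them. Genes called have an adjusted p under 0.05. Alternatives were edgeR 4.0.16 and DESeq2 1.42.0 on the rounded estimated counts, other pseudocounts and filters, only the groups compared, leaving out C_O72 and MS_W95, and leaving out each library in turn. Correlations used scipy 1.17.1 with 100000 permutations; tables and plots used Python 3.11.15, pandas 2.3.3, numpy 2.4.6 and matplotlib 3.10.9. The fits were tested on simulated data. Fold change, SE and p are given for a gene and comparison where the groups did not overlap or the unadjusted p was under 0.05 with 12 libraries (for Chrm5 against MS_W without p), and for some others with 10 libraries. The study's criteria used p from limma, not from Ballgown. In the pathway lists, genes are named that passed a criterion, or else the 2 with the smallest p. The genes most like each member are the 3 with the highest Pearson r. Members and lists were chosen with earlier results of these data known. Mice were separate animals. Some listed genes are not reported here and were left out of the counts of their lists.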

Additional observations from a re-analysis of the deposited data

Results flagged for a closer look

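For 4 genes the krill oil groups did not overlap in either background and differed in opposite directions, higher with krill oil in controls and lower with krill oil under CUMS. Over the 8 genes without Chrm5 there were 3. Taken singly, 4.08% of all genes were higher without overlap in controls and 7.66% lower under CUMS. The share of all genes that met both is not given. The differences in log2(FPKM + 1) for C_O against C_W and for MS_O against MS_W were 0.99 and -0.92 for Chat, 1.35 and -1.27 for Slc18a3, 0.91 and -1.08 for Slc5a7, and 0.09 and -0.43 for Chrm5. Without C_O72 and MS_W95 those for C_O against C_W were 0.53, 0.30, 0.25 and 0.07. Since the genes were picked by opposite signs, the sign of their interaction was fixed in advance. The test of the difference, the interaction in limma, gave -1.91 for Chat (adjusted p = 0.502), -2.62 for Slc18a3 (adjusted p = 0.665), -1.99 for Slc5a7 (adjusted p = 0.665) and -0.52 for Chrm5 with 12 libraries. Without C_O72 and MS_W95 it called Chat (-1.59, adjusted p = 0.0289). Chrm5, at -0.62, passed the filter on low values only through MS_W, so its value is a description.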

How the results depend on the processing

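With all 12 libraries limma called 0 of the 9 genes in each comparison. In MS_W against C_W it called 3 when only these groups entered the fit and 4 without C_O72 and MS_W95, and DESeq2 called 3. Of all 21393 genes these settings called 121, 246 and 389. In MS_O against MS_W it called 3, and in the interaction 2, without C_O72 and MS_W95, where 58 and 31 of all genes were called. DESeq2 called 2 in C_O against C_W and 3 in the interaction, where it called 54 and 151 of all genes. Leaving out 1 library at a time gave 0 to 4 calls in MS_W against C_W, 0 to 2 in MS_O against MS_W, and 0 to 0 in the other comparisons. The 4 and 2 calls came without C_O72, and without MS_W95 there was 1 call in both, of Chrm5, which is in the tested set only through MS_W.

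Under the study's criteria, MS_O against C_O gave 0 genes, with 1 by edgeR and 2 by DESeq2. Of all 21393 genes 764, 701 and 816 passed there. C_O against C_W gave 1, with 3 at a pseudocount of 0.1, 4 at 0.01, 4 by edgeR and 3 by DESeq2. In the same order 377, 395, 392, 510 and 599 of all genes passed. Leaving out each library gave 3 to 5 in MS_W against C_W (3 without C_W1, C_W64, C_W70 or MS_W95), 0 to 2 in MS_O against C_O (2 without C_O15), 1 to 4 in C_O against C_W (4 without C_O15, 3 without C_O30) and 1 to 4 in MS_O against MS_W (1 without MS_W75 or MS_O46). Of 36 gene pairs, 18 correlated at an adjusted p under 0.05 over 12 libraries and 11 over the 10, as well as 11 without the 2 libraries farthest from the median. The pair of Chat with Chrm5 is counted over the 12 and over the 10. The causes were not tested. Without C_O72 and MS_W95, 13 of 45 differences changed sign: 1 in MS_W against C_W (Chrm4), 5 in MS_O against C_O (Slc18a3, Slc5a7, Ache, Chrm1 and Chrm3), 4 in C_O against C_W (Ache, Chrm1, Chrm2 and Chrm4), 1 in MS_O against MS_W (Chrm4) and 2 in the interaction (Chrm1 and Chrm4). The 20 differences without overlap or with an unadjusted p under 0.05 over 12 libraries kept their sign in every refit. Leaving out libraries cannot reverse the sign between groups that do not overlap. For most of the 20 this result was therefore fixed in advance, and nothing is drawn from it. No paired analysis was possible because the mouse numbers are not shared between groups. With 3 mice a group, and estimated counts from 0 to 59 for Chrm5, small differences were not detectable.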
